A study of Mus musculus with 32 samples.

Results

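The genes described here are 65 of the 1606 genes in the cartilage table, selected on their mean values in 5 cartilage groups, as higher in MMS D28 than in Control while the earlier MMS groups stayed close to Control. For every gene the difference of a group from Control was taken as log2 of the group mean plus 1 minus log2 of the Control mean plus 1, and all log2 differences below are on this scale unless a fit is named. A member had a difference of at least 0.5 in MMS D28, and its differences in MMS D3, MMS D7 and MMS D14 were each at most 0.35 times that value. Of the 673 cartilage genes that reached 0.5 in MMS D28, the other 608 did not meet the second condition. Because the Control, MMS D3, MMS D7, MMS D14 and MMS D28 samples chose the members, their values in those groups are given as a description, without a test.

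RNA was sequenced from synovium and cartilage of C57BL/6 mice. The groups were a control group (Control), mice of a model named MMS with the group names MMS D3, MMS D7, MMS D14 and MMS D28, and 2 further groups named R1 and R2. Neither MMS nor R1 nor R2 is expanded in the labels, the figure after D has no unit there, and no genotype, age or sex is given. Cartilage had 14 libraries, 2 for each of 7 groups, and synovium had 18, 3 for each of 6 groups, with no MMS D28. The labels do not say whether replicates were separate animals, so a p-value here measures only the spread between libraries. The cartilage values are a normalised signal of unstated unit and the synovium values are FPKM (fragments per length of transcript and per mapped reads), and the depth of each library is unknown.

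The cartilage table is itself a selection: the means of MMS D28 and Control differed at least 1.5-fold in 1590 of its 1606 genes (99.0%). The cartilage matrix genes Acan and Col2a1 were listed in every library, at 104 to 442 and 192 to 1204. The 18 measured chondrocyte matrix genes summed to 28002 and 21277 in the Control libraries and 32405 and 32890 in MMS D3. They summed to 13476 and 20337 in MMS D7, 7487 and 6162 in MMS D14, 8920 and 9937 in MMS D28, 16031 and 16913 in R1, and 15011 and 19843 in R2. Chad, Cytl1 and Prg4 had the highest values of the 18 in every library (9949, 7954 and 4274 in Control replicate 1), so the sums mostly follow them. Single genes differed from the sums. By group means, 6 of the 18 were below Control in MMS D3, 18 in MMS D28 and 14 in R2, where Col2a1 was above it (0.41). Neutrophil genes were listed in all 14 libraries as well, as was every gene of the table, whose lowest value is 0.5. Being listed in every library is therefore not particular to these genes. In tissue RNA, fewer cells of a type and less RNA per cell cannot be told apart. Of the cartilage pairs, the MMS D28 replicates were the least alike (Spearman 0.970 across genes, against 0.976 to 0.990 in the other groups). Replicate 1 was the higher of the MMS D28 pair for 60 of 65 members. The same held for 721 of all 1606 genes and 516 of the 608 other genes that reached 0.5 in MMS D28.

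Neutrophils are short-lived white blood cells that are made in the bone marrow and enter inflamed tissue from the blood. While they mature they pack antimicrobial proteins and enzymes into granules, first the azurophil (primary) granules and then the specific and gelatinase granules, and late in maturation they gain the receptors with which they sense chemoattractants and microbes. Cartilage matrix is made by chondrocytes, and neutrophils are known in the joint mainly from inflamed synovial fluid and synovium.

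Of the 65 members, 16 were on at least 1 of the 44 gene lists used, and the others were on none. The neutrophil list held 6 of them (Ngp, Mmp8, Retnlg, Padi4, Chil3 and Trem1), out of 35 measured neutrophil genes. All 35 reached 0.5 in MMS D28, as did 673 cartilage genes in all, of which 65 are members. The cytokine and chemokine list held Il1b, Osm and Clec4d, and Selplg was on the leukocyte receptor list. Hdc, Ly6c2, Jchain, Trib3 and Fosb came 1 each from the lists of mast cells, monocytes, plasma cells, the unfolded protein response and immediate early genes, and Mmp8 was also on the protease list. In that order, 2, 6, 2, 5 and 4 genes of the first 5 lists were measured. At -0.5 or less in MMS D28 were 0, 1, 1, 4 and 1 of them, against 780 of all 1606 genes. The unfolded protein response list had a median of -0.82 there, so Trib3 (0.83) went against its list. No member was among the 18 chondrocyte matrix, 15 osteoblast or 22 B cell genes measured. The rule nearly fixed this, because only 0, 1 and 0 of these genes reached 0.5 in MMS D28.

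Taken as a median over the 65 members, the difference from Control was 0.68 in MMS D28 and 0.58 in R1. Before that it was -0.00 (MMS D3), -0.10 (MMS D7) and 0.15 (MMS D14), and R2 stood at 0.19. Over all 1606 genes the medians were 0.07 (MMS D3), -0.06 (MMS D7), 0.04 (MMS D14), -0.49 (MMS D28), -0.18 (R1) and 0.02 (R2). The members' linear ratio of MMS D28 to Control ran from 1.503 to 3.84 with a median of 1.69, so most lay near the lower edge of what the table lists. MMS D28 was the highest of the 7 groups by mean for 52 members, R1 for 12 and R2 for 1. The rule placed MMS D28 above Control and the earlier MMS groups, so only R1 or R2 could have been higher. MMS D7, which the rule also kept low, was the lowest group for 40 members. Its 2 libraries differed, with member medians of 0.08 and -0.30. These ranks were not counted over all genes. Among the 3 groups that had to stay low, MMS D14 was the highest for 55 members, MMS D3 for 8 and MMS D7 for 2.

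**Figure D1:**
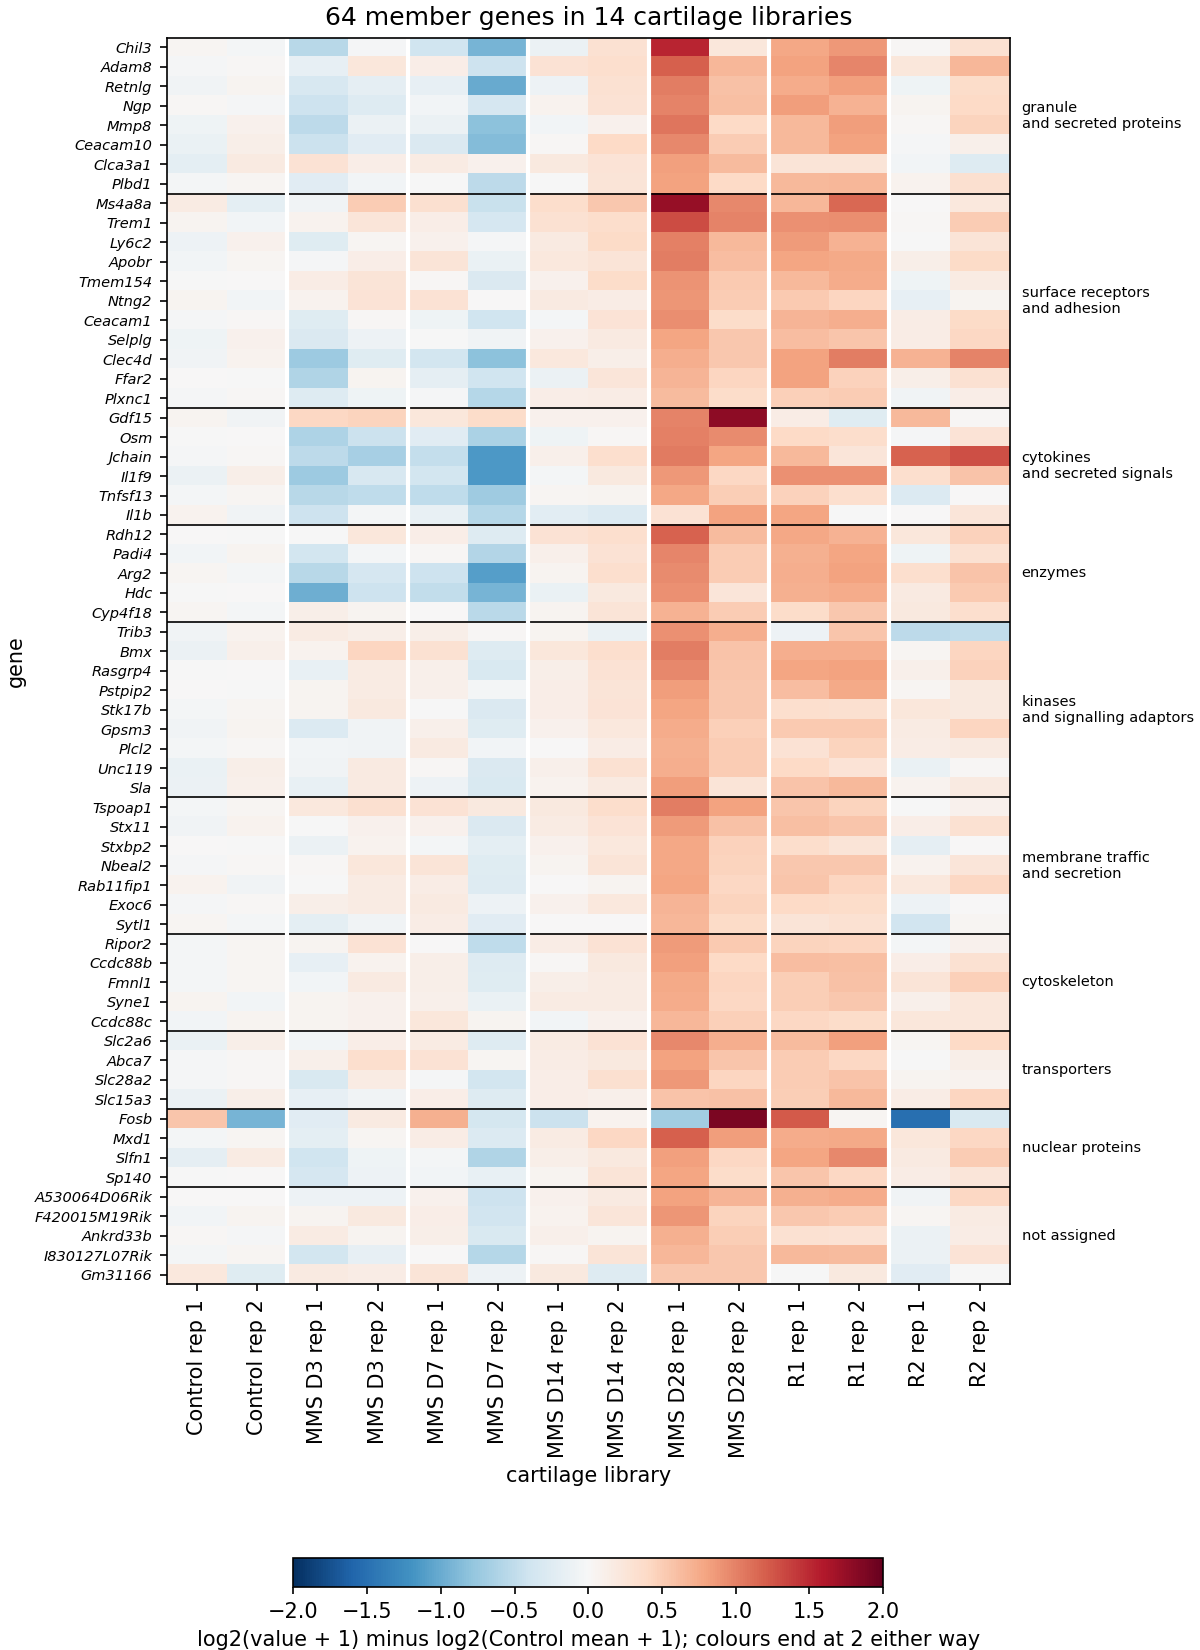
Colour gives log2 of each library's value plus 1 minus log2 of the Control mean plus 1, for 64 of the 65 members (rows, by role) in 14 cartilage libraries (columns). The deepest red columns are MMS D28 replicate 1 and, more weakly, MMS D28 replicate 2 and both R1 libraries, while MMS D7 replicate 2 is the bluest.

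R1 was raised as well, which the name of the group of genes, raised only at MMS D28, leaves out. The difference from Control was at least 0.5 in R1 for 42 of 65 members (64.6%), against 26.5% of all cartilage genes and 62.4% of the 673 genes that reached 0.5 in MMS D28. The word only was fixed by the rule for MMS D3, MMS D7 and MMS D14, and it does not hold against R1. In MMS D14, 60 of 65 members were above 0, by at most 0.44, against 825 of all 1606 genes. In R2 the members at 0.5 or more were 2 of 65, Jchain and Clec4d, against 2.68% of all genes and 4.31% of the 673. Since R1, R2 and MMS D28 are all set against the same Control libraries, these counts share them and no test was made. As a share of its MMS D28 difference, the median member kept 0.835 in R1 and 0.260 in R2.

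Without reference to thresholds, both R1 libraries lay above both Control libraries for 60 of 65 members (92.3%), against 40.7% of all genes and 93.3% of the 608 other genes that reached 0.5 in MMS D28. The exceptions were Gdf15, Fosb, Il1b, Trib3 and Gm31166. For R2 the count was 32 of 65 (49.2%), against 29.6% of all genes and 52.6% of those 608. For MMS D14, which the rule used, it was 40 of 65 (44.6% of all genes), and for MMS D28, also used by the rule, it was 64 of 65 (43.1% of all genes), with Fosb as the exception. The R1 and MMS D28 libraries overlapped for 43 members, and both MMS D28 libraries were above both R1 libraries for 20. Both R1 libraries were above both MMS D28 libraries for Clec4d and Il1f9. Over all 1606 genes they overlapped for 706, MMS D28 was above R1 for 309 and R1 above MMS D28 for 591. Over the 608 other genes these counts were 351, 252 and 5.

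**Figure D2:**
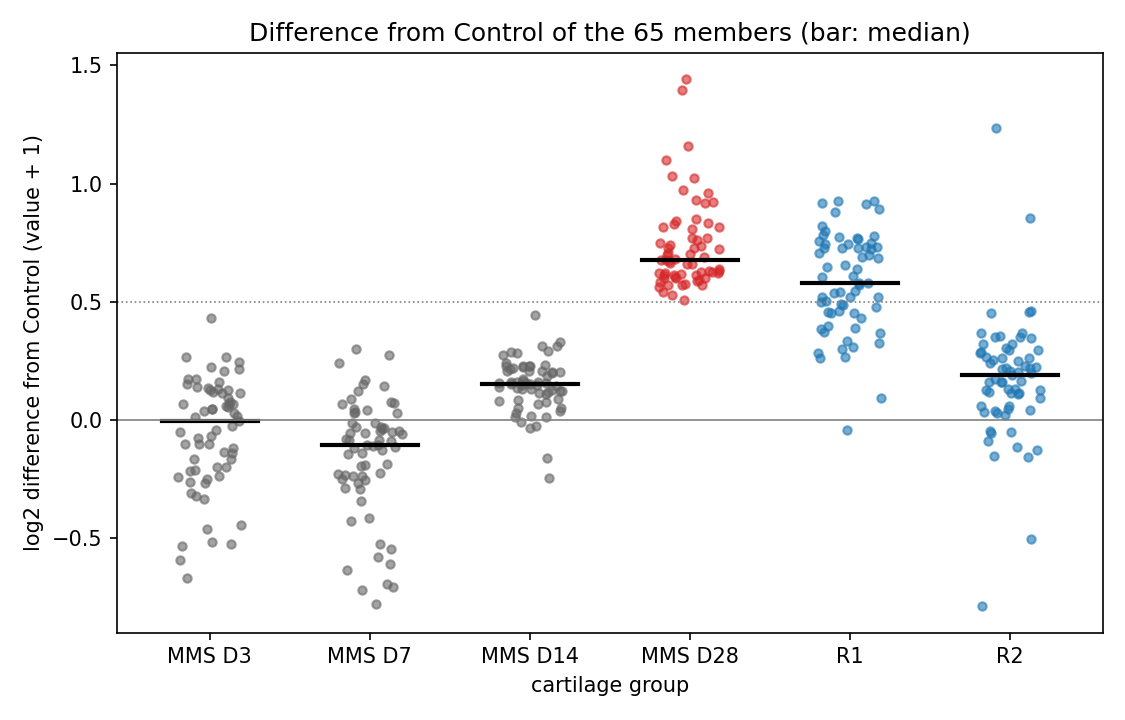
Each point is the log2 difference of a cartilage group mean from the Control mean (value plus 1) for 1 of the 65 members, the bar is the median, and the dotted line is 0.5. Medians are 0.68 in MMS D28 and 0.58 in R1, and the points of MMS D3, MMS D7 and MMS D14 lie below 0.5 because the rule placed them there.

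Library by library, the members' median difference from the Control mean was -0.03 and 0.03 in the Control libraries, -0.15 and 0.07 in MMS D3, 0.08 and -0.30 in MMS D7 and 0.09 and 0.25 in MMS D14. It was 0.83 and 0.51 in MMS D28, 0.62 and 0.57 in R1 and 0.05 and 0.28 in R2. The number of members at 0.5 or more was 63 and 40 in the MMS D28 libraries, 45 and 42 in R1 and 3 and 8 in R2. The R1 libraries were thus closer to each other than the MMS D28 libraries were. MMS D7 replicate 1 was above replicate 2 for 64 of 65 members and for 860 of all 1606 genes. The count was 512 of the 608 other genes that reached 0.5 in MMS D28, so this gap was not particular to the members.

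The membership was sensitive to single libraries. Without MMS D28 replicate 1 the rule found 26 genes, 22 of them members, and without MMS D28 replicate 2 it found 116, 62 of them members. Leaving out MMS D14 replicate 1 gave 39 genes (35 members) and leaving out MMS D14 replicate 2 gave 123 (64 members). The members just inside the second condition, as the largest early share of the MMS D28 difference, were Rdh12 (0.339), Ly6c2 (0.343), Slc28a2 (0.346) and Bmx (0.349). Just outside were Samsn1 (0.3502), Ccno (0.352), Atg7 (0.354) and the neutrophil chemokine receptor gene Cxcr2 (0.355). At the first condition, Plxnc1 (0.51), Sytl1 (0.53), Gm31166 (0.54) and Ffar2 (0.56) were just inside, and Inpp5j (0.47), Lrmda (0.48), Cish (0.49) and Dhrs9 (0.4985) just outside.

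Granule and secreted proteins form the first role, with 8 members. Of these, Ngp, Mmp8, Retnlg and Chil3 were on the neutrophil list and the others were not. Ngp encodes neutrophilic granule protein, a cystatin-like protein of specific granules. Its listed value was 7744 and 7431 in Control, 5693 and 6340.4 in MMS D3, 7337 and 6012 in MMS D7, 7980.1 and 9295 in MMS D14, 15103 and 11498 in MMS D28, 13496 and 12336 in R1 and 7898 and 10042 in R2, in replicate order here and below. Both MMS D28 and both R1 libraries were above every other library, and MMS D3 held the lowest value. Retnlg, which encodes a resistin-like secreted protein of myeloid cells, was listed at 1007 and 1099 in Control, 843 and 927 in MMS D3, 939 and 523 in MMS D7, 979 and 1307 in MMS D14, 2136 and 1579 in MMS D28, 1769.5 and 1856 in R1 and 994 and 1359 in R2. Again the 4 libraries of MMS D28 and R1 were the highest and did not overlap with the rest, and MMS D7 replicate 2 was the lowest. Mmp8, the neutrophil collagenase, which cleaves fibrillar collagen, was listed at 174 and 195 in Control, 128 and 170.3 in MMS D3, 170.2 and 104 in MMS D7, 178 and 196 in MMS D14, 389 and 243 in MMS D28, 289.6 and 331 in R1 and 189 and 252 in R2. Here R2 replicate 2 exceeded MMS D28 replicate 2, so these groups overlapped.

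Chil3, which encodes the chitinase-like protein Ym1, showed the widest MMS D28 pair of this role. Its values were 659.9 and 624 in Control, 438 and 630.4 in MMS D3, 488 and 338 in MMS D7, 594 and 791 in MMS D14, 1856 and 754 in MMS D28, 1097 and 1169.7 in R1 and 652 and 794 in R2. MMS D28 replicate 1 stood far above the rest, while MMS D28 replicate 2 lay below MMS D14 replicate 2 and R2 replicate 2. Adam8, a membrane metalloprotease of myeloid cells, was listed at 26.5 and 27.2 in Control, 23.9 and 31.5 in MMS D3, 29.5 and 19.98 in MMS D7, 33.2 and 34.1 in MMS D14, 63.1 and 43.3 in MMS D28, 47.9 and 53.6 in R1 and 31.5 and 42.96 in R2, with R2 replicate 2 just under MMS D28 replicate 2. Plbd1, a phospholipase B-like protein of granules, differed by 0.62 in MMS D28 and 0.66 in R1. Ceacam10, a secreted carcinoembryonic antigen family protein, differed by 0.75 and 0.73, and Clca3a1, a chloride channel accessory protein, by 0.73 and 0.26. Clca3a1 was the only one of the 8 whose R1 difference was under 0.5. Ceacam10, Ceacam1 and Clca3a1 have near-identical relatives, as has Ly6c2, and how the authors' counting split shared reads among such copies is not known.

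The promoters of Ngp, Retnlg, Chil3 and Mmp8 are shown because these 4 granule and secreted protein genes had like courses over the 7 groups and because C/EBP and PU.1 factors are known to drive granule genes in maturing neutrophils. The sequences are from RefSeq on build GRCm38.p6 and run 5′ to 3′ on the gene's strand up to the base before its start, at chr9:110419558-110419746 for Ngp (plus strand), chr16:48872358-48872607 for Retnlg (plus strand), chr3:106167565-106167814 for Chil3 (minus strand) and chr9:7558179-7558428 for Mmp8 (plus strand). In Ngp the last 61 bases before the RefSeq start lie in an annotated exon and are left off. Capitals mark matches, on either strand, to the C/EBP core TTGNNNAA and, in Mmp8 only, to the ETS and PU.1 core GAGGAAGT.
Ngp: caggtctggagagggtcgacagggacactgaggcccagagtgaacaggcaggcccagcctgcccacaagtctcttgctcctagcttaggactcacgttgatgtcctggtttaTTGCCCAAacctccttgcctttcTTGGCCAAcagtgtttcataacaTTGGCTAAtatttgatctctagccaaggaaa
Retnlg: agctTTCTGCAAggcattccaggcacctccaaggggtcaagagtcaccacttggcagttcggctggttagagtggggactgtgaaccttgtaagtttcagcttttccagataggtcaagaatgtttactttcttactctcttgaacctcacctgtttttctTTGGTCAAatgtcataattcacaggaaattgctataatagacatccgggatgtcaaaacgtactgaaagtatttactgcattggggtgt
Chil3: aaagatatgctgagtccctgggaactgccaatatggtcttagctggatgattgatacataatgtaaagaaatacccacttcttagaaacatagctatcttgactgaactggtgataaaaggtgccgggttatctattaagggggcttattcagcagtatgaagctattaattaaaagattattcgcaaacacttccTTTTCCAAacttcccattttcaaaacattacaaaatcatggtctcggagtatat
Mmp8: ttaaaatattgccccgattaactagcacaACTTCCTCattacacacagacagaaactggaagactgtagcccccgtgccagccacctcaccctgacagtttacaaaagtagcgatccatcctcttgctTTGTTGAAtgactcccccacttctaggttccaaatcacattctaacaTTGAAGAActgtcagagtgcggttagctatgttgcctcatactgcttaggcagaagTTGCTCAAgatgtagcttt
Relative to the start, the C/EBP matches printed for Ngp begin at -138, -115 and -92, those of Retnlg at -246 and -89, that of Chil3 at -54 and those of Mmp8 at -122, -75 and -19, and the ETS match of Mmp8 begins at -221. Such a match is a string of letters, and whether any of these is a binding site was not measured. RefSeq promoters were found for 50 of the 65 members. Over the 250 bases before the start, the C/EBP core occurred in 24 of these 50 (48%), in 31.2% of the 1226 cartilage table genes with an entry and in 33.6% of all 27025 promoters. The ETS and PU.1 core occurred in 5 of 50 (10%), in 3.92% of table genes and in 2.44% of all.

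A further 10 motifs were searched in the same windows on both strands, and matches of different motifs may overlap. Shares follow in the order members, cartilage table genes and all promoters. The EBF core CCCNNGGG occurred in 28%, 17.8% and 11.7%, and the GATA motif AGATAA in 12%, 6.12% and 10.3%. The E-box CACGTG occurred in 10%, 7.18% and 6.05%, AP-1 (TGANTCA) in 12%, 7.91% and 6.87% and RUNX (TGTGGT) in 14%, 13.2% and 14.2%. SOX (ACAAAG) occurred in 20%, 13.95% and 16.5%, KLF1 (CCACACCC) in 8%, 4.4% and 3.19% and TATA boxes (TATAAA) in 6%, 9.3% and 12.97%. CCAAT occurred in 32%, 34.8% and 34.5%, and the NF-kappaB core, given by name alone, in 0%, 0.326% and 0.337%. These shares are descriptions of few promoters and were not tested.

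Surface receptors and adhesion proteins form the largest role, with 12 members. Trem1, an activating receptor that amplifies inflammatory signalling in neutrophils and monocytes, was listed at 7.07 and 6.49 in Control, 7.14 and 8.17 in MMS D3, 7.54 and 5.15 in MMS D7, 8.65 and 8.89 in MMS D14, 18.2 and 14.5 in MMS D28, 13.7 and 13.9 in R1 and 6.92 and 10.1 in R2. MMS D28 and R1 were above all other libraries, and MMS D28 was above R1 in both replicates. Ms4a8a, a tetraspanning membrane protein gene of the MS4A family, had the second largest MMS D28 difference of all members (1.40). It was listed at 3.51 and 2.52 in Control, 2.83 and 4.69 in MMS D3, 3.99 and 1.96 in MMS D7, 4.10 and 4.83 in MMS D14, 12.4 and 6.78 in MMS D28, 5.38 and 7.89 in R1 and 3.03 and 3.66 in R2, with the MMS D28 replicates far apart and R1 replicate 2 between them. Selplg, the P-selectin ligand that binds platelet and endothelial selectin, differed by 0.67 in MMS D28, 0.58 in R1 and 0.28 in R2.

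Clec4d, a C-type lectin receptor for fungal and mycobacterial glycolipids, departed from the common course. Its values were 12.98 and 14.5 in Control, 7.95 and 11.5 in MMS D3, 10.4 and 7.33 in MMS D7, 16.02 and 14.98 in MMS D14, 23.5 and 20.4 in MMS D28, 24.8 and 29 in R1 and 22.97 and 28.4 in R2. Both R1 libraries and R2 replicate 2 were above both MMS D28 libraries, and all R2 libraries were above all Control libraries. Ly6c2, a surface antigen of monocytes and other myeloid cells, was listed at 538 and 614 in Control, 485 and 591 in MMS D3, 610.1 and 567 in MMS D7, 653 and 755 in MMS D14, 1162 and 903 in MMS D28, 1044 and 931 in R1 and 572 and 686 in R2. MMS D28 and R1 overlapped, both above the rest. Ffar2, a receptor for short-chain fatty acids that directs neutrophil migration, was listed at 10.4 and 10.3 in Control, 6.52 and 10.8 in MMS D3, 9 and 7.65 in MMS D7, 9.48 and 12.4 in MMS D14, 17.2 and 14.4 in MMS D28, 18.9 and 14.7 in R1 and 11.4 and 13.03 in R2, and R1 again overlapped with MMS D28. The other 5 receptors were Apobr (a receptor for apolipoprotein B48), Ceacam1 (an inhibitory adhesion receptor), Plxnc1 (a semaphorin receptor), Ntng2 (a netrin family membrane protein) and Tmem154 (a transmembrane protein). Their MMS D28 differences ran from 0.51 to 0.84 and their R1 differences from 0.48 to 0.78.

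Cytokines and other secreted signals form a role of 6 members with the least uniform courses. Osm encodes oncostatin M, a cytokine of the interleukin-6 family that neutrophils and macrophages release and that acts on chondrocytes and synovial cells. It was listed at 4.93 and 5.02 in Control, 2.88 and 3.44 in MMS D3, 4.10 and 2.86 in MMS D7, 4.66 and 5.09 in MMS D14, 11.02 and 10.5 in MMS D28, 6.87 and 6.60 in R1 and 4.91 and 6.19 in R2. Both MMS D28 libraries were well above every other library, R1 included, and the 4 libraries of MMS D3 and MMS D7 were below Control. Gdf15, a stress-induced member of the transforming growth factor beta superfamily, had the largest MMS D28 difference (1.44) and no difference of that size elsewhere. Its values were 1.64 and 1.42 in Control, 2.38 and 2.45 in MMS D3, 1.97 and 2.26 in MMS D7, 1.69 and 1.68 in MMS D14, 4.04 and 7.70 in MMS D28, 1.79 and 1.13 in R1 and 2.97 and 1.56 in R2. The R1 libraries overlapped with Control, and R2 replicate 1 was the highest library outside MMS D28.

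Il1b encodes interleukin-1 beta, a main inflammatory cytokine of myeloid cells. It was listed at 14.8 and 13.4 in Control, 10.4 and 13.7 in MMS D3, 12.7 and 9.17 in MMS D7, 11.99 and 11.5 in MMS D14, 17.4 and 25.4 in MMS D28, 25.2 and 14.1 in R1 and 14.2 and 16.8 in R2, so MMS D28 replicate 2 and R1 replicate 1 were the highest and the groups overlapped. Il1f9, now named Il36g, encodes interleukin-36 gamma, and was listed at 14.7 and 17.4 in Control, 9.27 and 12.6 in MMS D3, 12.2 and 6.69 in MMS D7, 15.7 and 18.6 in MMS D14, 30.1 and 21.8 in MMS D28, 31.01 and 31.3 in R1 and 20.5 and 24.4 in R2. Both R1 libraries were above both MMS D28 libraries. Tnfsf13 encodes APRIL, a survival factor for plasma cells, and was listed at 6.04 and 6.37 in Control, 3.89 and 4.06 in MMS D3, 4.04 and 3.41 in MMS D7, 6.43 and 6.52 in MMS D14, 11.3 and 9.08 in MMS D28, 8.89 and 8.10 in R1 and 4.99 and 6.22 in R2. MMS D28 was the highest group, R1 was between it and Control, and MMS D3 and MMS D7 were below Control.

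Jchain, the joining chain of polymeric antibodies and a marker of plasma cells, was highest in R2. It was listed at 26.97 and 27.99 in Control, 18.7 and 17.1 in MMS D3, 19.4 and 11.8 in MMS D7, 29.7 and 35.1 in MMS D14, 57.6 and 48.2 in MMS D28, 43.6 and 32.9 in R1 and 63.4 and 68.5 in R2. Both R2 libraries were above every other library, MMS D28 came next, and MMS D3 and MMS D7 were below Control. The 22 measured B cell genes had a median difference of -1.65 in MMS D28, -0.92 in R1 and 0.33 in R2, so Jchain and the B cell list were on opposite sides of Control in MMS D28 and on the same side in R2. The plasma cell list had 1 other measured gene, Mzb1, a chaperone of antibody assembly, which differed by -0.77 in MMS D28, -0.46 in R1 and 0.33 in R2, so it too was below Control in MMS D28 and R1, where Jchain was above.

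**Figure D3:**
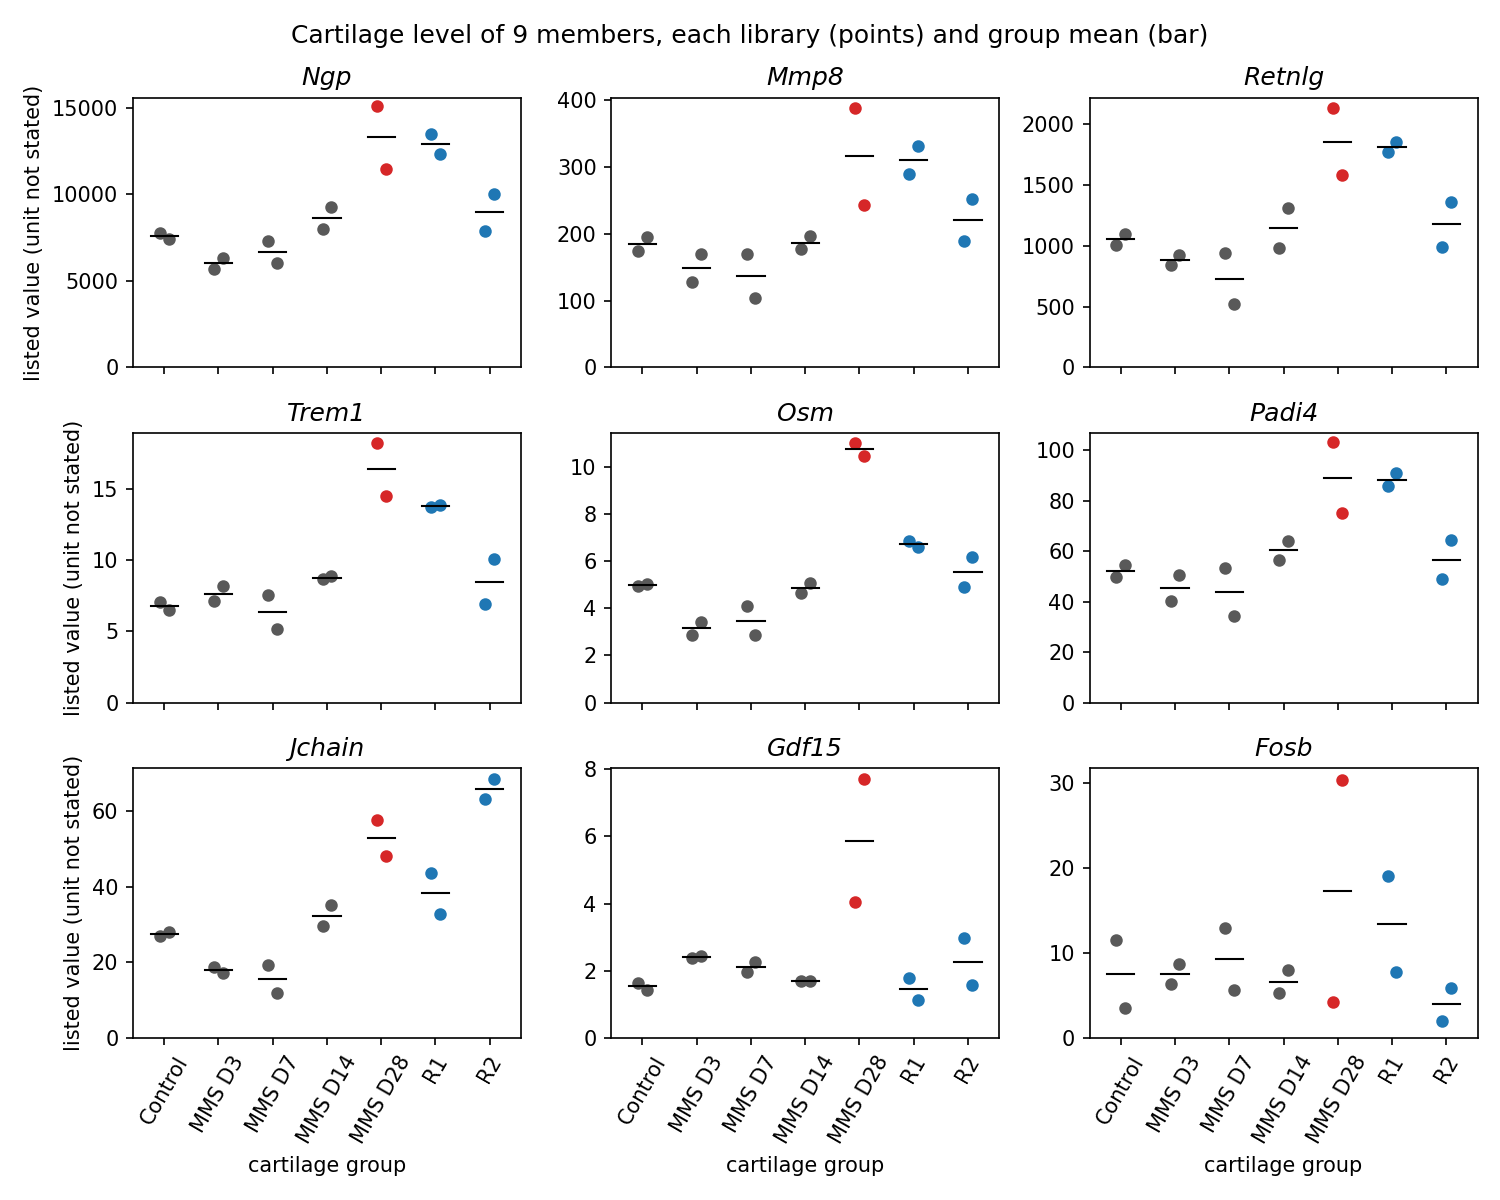
Listed cartilage value (linear axis from 0, unit not stated) of 9 members in each library (points) with the group mean (bar), 2 libraries per group. Ngp, Mmp8, Retnlg, Trem1 and Padi4 are high in MMS D28 and R1, Osm and Gdf15 in MMS D28, Jchain in R2 (63.4 and 68.5), and Fosb in 1 MMS D28 library (30.4 against 4.25).

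Among the 5 enzymes, Padi4, which converts arginine to citrulline in histones and takes part in the release of neutrophil extracellular traps, was listed at 50.01 and 54.5 in Control, 40.3 and 50.7 in MMS D3, 53.2 and 34.3 in MMS D7, 56.4 and 64.2 in MMS D14, 103 and 75.1 in MMS D28, 85.7 and 90.95 in R1 and 48.9 and 64.5 in R2. R1 lay within the range of the MMS D28 pair, and R2 overlapped with Control. Hdc, the enzyme that makes histamine from histidine, was listed at 42.1 and 42.8 in Control, 20.96 and 31.7 in MMS D3, 29.97 and 21.7 in MMS D7, 38.5 and 48.8 in MMS D14, 80.5 and 50.5 in MMS D28, 70.1 and 71.5 in R1 and 48.05 and 61.1 in R2. MMS D28 replicate 1 was the highest library, but R2 replicate 2 and both R1 libraries exceeded MMS D28 replicate 2. Arg2, the mitochondrial arginase, differed by 0.74 in MMS D28, 0.77 in R1 and 0.45 in R2, against -0.72 in MMS D7. The retinol dehydrogenase gene Rdh12 differed by 0.93 in MMS D28 and 0.73 in R1, and Cyp4f18, a cytochrome P450 that inactivates leukotriene B4, by 0.60 and 0.45.

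Kinases and signalling adaptors numbered 9. Trib3, a stress-induced pseudokinase, was listed at 2.19 and 2.50 in Control, 2.75 and 2.62 in MMS D3, 2.63 and 2.41 in MMS D7, 2.48 and 2.05 in MMS D14, 5.31 and 4.56 in MMS D28, 2.11 and 3.93 in R1 and 1.33 and 1.39 in R2. Both MMS D28 libraries were the highest, the R1 libraries were far apart, and both R2 libraries were below every other library. Pstpip2, an adaptor that restrains interleukin-1 driven inflammation of bone, was listed at 9.12 and 9.07 in Control, 9.52 and 10.3 in MMS D3, 9.84 and 8.84 in MMS D7, 10.1 and 11.1 in MMS D14, 17.01 and 13.7 in MMS D28, 14.5 and 16.1 in R1 and 9.35 and 10.6 in R2. MMS D28 and R1 overlapped above the rest. Bmx (a Tec family kinase), Rasgrp4 (a Ras activator of mast and myeloid cells), Stk17b (a serine/threonine kinase), Gpsm3 (a G protein modulator), Plcl2 (a catalytically inactive phospholipase C-like protein), Unc119 (a lipid-binding trafficking adaptor) and Sla (a Src-like adaptor) differed by 0.57 to 0.81 in MMS D28. In R1 these 7 differed by 0.33 (Stk17b) to 0.80 (Rasgrp4).

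Membrane traffic and secretion accounted for 7 members: Stx11 and Stxbp2, a syntaxin and its partner that serve granule release in cytotoxic cells and neutrophils, Sytl1 and Rab11fip1, which bind Rab proteins on vesicles, Exoc6, a subunit of the exocyst, Nbeal2, needed for granules in platelets and neutrophils, and Tspoap1, a scaffold protein. Tspoap1 was listed at 4.56 and 4.87 in Control, 5.65 and 6.12 in MMS D3, 5.95 and 5.56 in MMS D7, 5.54 and 6.28 in MMS D14, 10.6 and 8.96 in MMS D28, 7.38 and 6.82 in R1 and 4.70 and 5.08 in R2. MMS D28 was above R1 and R1 above the rest in both replicates. Stx11 was listed at 16.9 and 18.7 in Control, 17.8 and 19.03 in MMS D3, 19.02 and 14.4 in MMS D7, 19.97 and 21.7 in MMS D14, 32.97 and 27.1 in MMS D28, 27.6 and 26.6 in R1 and 19.6 and 22.3 in R2, with MMS D28 replicate 2 inside the R1 pair. The median of the 7 was 0.62 in MMS D28, 0.50 in R1 and 0.04 in R2.

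Of the 5 cytoskeleton genes, Fmnl1 (a formin of leukocytes) differed by 0.60 in MMS D28, 0.54 in R1 and 0.37 in R2, and Ripor2 (an inhibitor of RhoA) by 0.70, 0.43 and 0.03. Ccdc88b, Ccdc88c and the nuclear envelope spectrin gene Syne1 differed by 0.57 to 0.62 in MMS D28 and 0.39 to 0.61 in R1. The 4 transporters were Slc2a6 (a lysosomal hexose transporter), Slc15a3 (a lysosomal peptide transporter), Slc28a2 (a nucleoside transporter) and Abca7 (a lipid transporter), at 0.58 to 0.85 in MMS D28 and 0.46 to 0.73 in R1. Slc2a6 was listed at 9.30 and 11.2 in Control, 9.83 and 11.4 in MMS D3, 11.6 and 8.44 in MMS D7, 11.6 and 12.7 in MMS D14, 20.9 and 17.6 in MMS D28, 16.4 and 18.9 in R1 and 10.5 and 13.9 in R2, and its MMS D28 and R1 libraries overlapped above the rest.

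Of the 4 genes of nuclear proteins, Mxd1 encodes a Max partner that opposes Myc and is known from maturing myeloid cells. Its values were 44.9 and 47.95 in Control, 40.3 and 47.6 in MMS D3, 51.4 and 38.4 in MMS D7, 51.9 and 62.2 in MMS D14, 108 and 84.1 in MMS D28, 78.3 and 79.4 in R1 and 54.5 and 62.1 in R2. MMS D28 was above R1 in both replicates and R1 above the remaining groups. Slfn1, a Schlafen family gene linked to T cell quiescence, was listed at 29.9 and 37.95 in Control, 25.5 and 31.8 in MMS D3, 33.1 and 21.9 in MMS D7, 36.98 and 38.9 in MMS D14, 60.9 and 45.3 in MMS D28, 59.4 and 67.2 in R1 and 38.5 and 48.8 in R2, with R1 replicate 2 the highest library. Sp140, a chromatin reader of immune cells, differed by 0.59 in MMS D28 and 0.49 in R1. Fosb, an immediate early AP-1 subunit, was listed at 11.6 and 3.48 in Control, 6.33 and 8.70 in MMS D3, 12.9 and 5.69 in MMS D7, 5.32 and 7.94 in MMS D14, 4.25 and 30.4 in MMS D28, 19.1 and 7.77 in R1 and 2.01 and 5.88 in R2. It was a member through 1 library: MMS D28 replicate 1 was below Control replicate 1, and without MMS D28 replicate 2 its MMS D28 difference was -0.70.

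The last 5 members had no role assigned. A530064D06Rik, F420015M19Rik, Ankrd33b, the annotated pseudogene I830127L07Rik and the annotated pseudogene Gm31166 differed by 0.54 to 0.74 in MMS D28, and in R1 by 0.09 (Gm31166) to 0.73 (A530064D06Rik). By position on GRCm38, members lay on 19 chromosomes. In 5 pairs the genes were within 250 kb of each other: Arg2 and Rdh12 (chr12:79130777-79222665), Ly6c2 and I830127L07Rik (chr15:75108158-75135128), A530064D06Rik and Trem1 (chr17:48149126-48246924), Slc15a3 and Ms4a8a (chr19:10839727-11081102), and Ngp and Nbeal2 (chr9:110419747-110654161).

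The 29 measured neutrophil genes that are not members had a median difference of 0.71 in MMS D14, 1.05 in MMS D28 and 0.98 in R1, with 0.05 in MMS D3, 0.02 in MMS D7 and 0.14 in R2. The early medians cover a wide spread. In MMS D3 and MMS D7, 8 and 8 of the 29 reached 0.5 (171 and 109 of all 1606 genes), while 11 and 13 were below 0. Stfa1, Stfa2, Stfa2l1, Stfa3, BC100530 and Gm5483 ran from 1.96 to 3.73 in MMS D3 and from 1.19 to 2.91 in MMS D7. The 6 that are members stood at 0.15 in MMS D14, 0.81 in MMS D28 and 0.78 in R1, with -0.26 in MMS D3, -0.34 in MMS D7 and 0.21 in R2. The rule sorted the neutrophil genes raised in MMS D28 by their values in MMS D3, MMS D7 and MMS D14, so the gap between the members and the others in those groups was fixed by the choice. It placed no condition on R1 or R2. Among the 29, the azurophil granule genes Elane, Mpo, Prtn3 and Ctsg ran from 0.45 to 1.22 in MMS D14 and from 0.92 to 1.57 in MMS D28. The specific granule genes Camp, Ltf and Lcn2 were at 0.47, 0.28 and 0.49 in MMS D14 and at 0.74, 0.80 and 0.95 in MMS D28. The groups overlapped, as Elane was below Camp and Lcn2 in MMS D14 (0.45) and below Lcn2 in MMS D28 (0.92). Of the genes put in neither group, Cd177, Hp and Mmp9 were at 0.69, 0.71 and 0.94 in MMS D14, and Pglyrp1 at 0.39. In MMS D28 they were at 1.14, 1.15, 0.62 and 0.85. The grouping by granule was made after the values were seen and was not tested, so no order of granule types is drawn from it.

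Summed over the 29 non-member neutrophil genes, the listed values were 26492 and 27269 in Control, 24848 and 27827 in MMS D3, 27524 and 20421 in MMS D7, 34544 and 43039 in MMS D14, 57166 and 43596 in MMS D28, 50939 and 49806 in R1 and 27328 and 34274 in R2. The MMS D28 and R1 libraries were the highest, with MMS D14 replicate 2 close to MMS D28 replicate 2. In both the members' median and this sum, replicate 1 was the higher of MMS D28 and of MMS D7, and replicate 2 was the higher of R2. How far the members' values depend on the amount of neutrophil RNA in each library was not tested. As a share of all listed signal, the members together made up 9.05% and 9.70% in Control, 6.91% and 7.69% in MMS D3 and 10.4% and 8.13% in MMS D7. The shares were 10.7% and 11.7% in MMS D14, 15.9% and 13.4% in MMS D28, 13.6% and 13.2% in R1 and 10.4% and 11.7% in R2. Ngp alone was 7744 of 130471 in Control replicate 1 and 15103 of 149173 in MMS D28 replicate 1, so the shares mostly follow this gene.

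**Figure D4:**
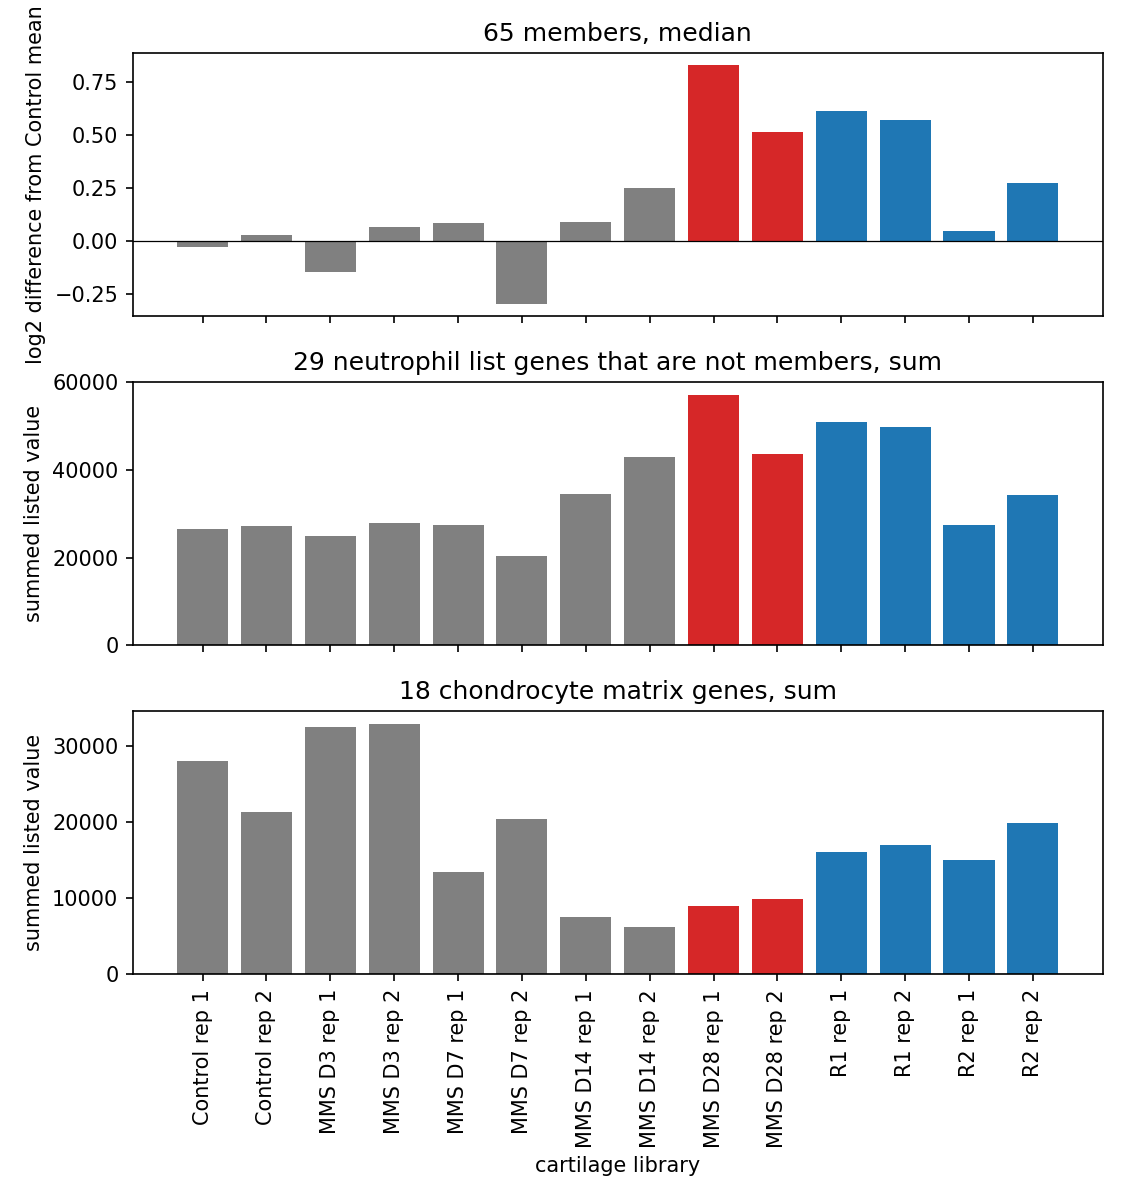
For each of 14 cartilage libraries, bars give the members' median log2 difference from the Control mean (top), the summed listed value of 29 neutrophil genes that are not members (middle) and of 18 chondrocyte matrix genes (bottom). The members and the neutrophil sum are both highest in MMS D28 replicate 1 (0.83 and 57166). The chondrocyte sum, which mostly follows Chad, Cytl1 and Prg4, is lowest in MMS D14 replicate 2 (6162).

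R2 against R1 in cartilage is the comparison that the rule did not use, and it asks whether the members differed between these groups. In limma, fitted on all 1606 genes with all 14 libraries, 18 of 65 members fell in R2 relative to R1 (27.7%), against 22.4% of all genes called lower, and 1 rose, Jchain, against 13.2% of all genes called higher. A share of 27.7% is near the 22.4% of the table, so the count of calls does not set the members apart. The fitted difference was below 0 for 63 of 65 members, with a median of -0.43 against 0.07 over all genes, and 39 members had an unadjusted p under 0.05. As a difference of group means, the median was -0.43 in the members, -0.45 in the 608 other genes that reached 0.5 in MMS D28 and -0.76 in the 29 other neutrophil genes. The fall was therefore not particular to the members. The counts of 63 and 39 were not set against the same counts over all genes. Both R1 libraries were above both R2 libraries for 60 of 65 (92.3%), against 39.5% of all genes, 87.8% of the 608 other genes that reached 0.5 in MMS D28 and each of the 29 other neutrophil genes, and the 5 others were Jchain, Gdf15, Il1b, Clec4d and Gm31166. Of the 608 other genes raised in MMS D28, 54.6% were called lower, and of the 29 other neutrophil genes 89.7%.

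Among the members called lower by limma, the smallest adjusted p belonged to Trib3 (log2 difference -0.73, SE 0.177, adjusted p = 0.0109) and Pstpip2 (-0.57, SE 0.138, adjusted p = 0.0109). Trib3 was below its Control level in R2, whereas Pstpip2 was close to its own. The R1 libraries of Trib3 were far apart (2.11 and 3.93), and the limma SE draws on the spread within all 7 groups. Next came Tmem154, listed at 24.7 and 26.7 in R1 and 14.4 and 17.4 in R2 (-0.66, adjusted p = 0.0138), and Tnfsf13 (-0.53, adjusted p = 0.0170). Tspoap1 (-0.46, adjusted p = 0.0192) and Ly6c2 (-0.65, adjusted p = 0.0195) completed the first 6 of the 18. Jchain differed by 0.78 (SE 0.206, adjusted p = 0.0156) and was higher in both R2 libraries than in both R1 libraries. By role, the calls lower were 5 of 12 receptors, 3 of 9 kinases and adaptors, 2 of 8 granule and secreted proteins, 2 of 7 traffic genes, 2 of 4 transporters, 2 of 5 unassigned genes, 1 of 6 cytokines, 1 of 5 enzymes, and 0 of the 5 cytoskeleton and 4 nuclear genes. For the granule genes named above the differences were -0.53 for Ngp (adjusted p = 0.0712), -0.64 for Retnlg (0.0765), -0.50 for Mmp8 (0.141) and -0.65 for Chil3 (0.143), none past the threshold.

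The count of calls changed with single libraries. With limma, 3 members were called without R1 replicate 1, 0 without R1 replicate 2 (19 at an unadjusted p under 0.05), 0 without R2 replicate 1 (9 at an unadjusted p under 0.05) and 15 without R2 replicate 2, against 19 with all libraries. In each of these fits 62 or 63 of the 65 members were below 0.

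**Figure D5:**
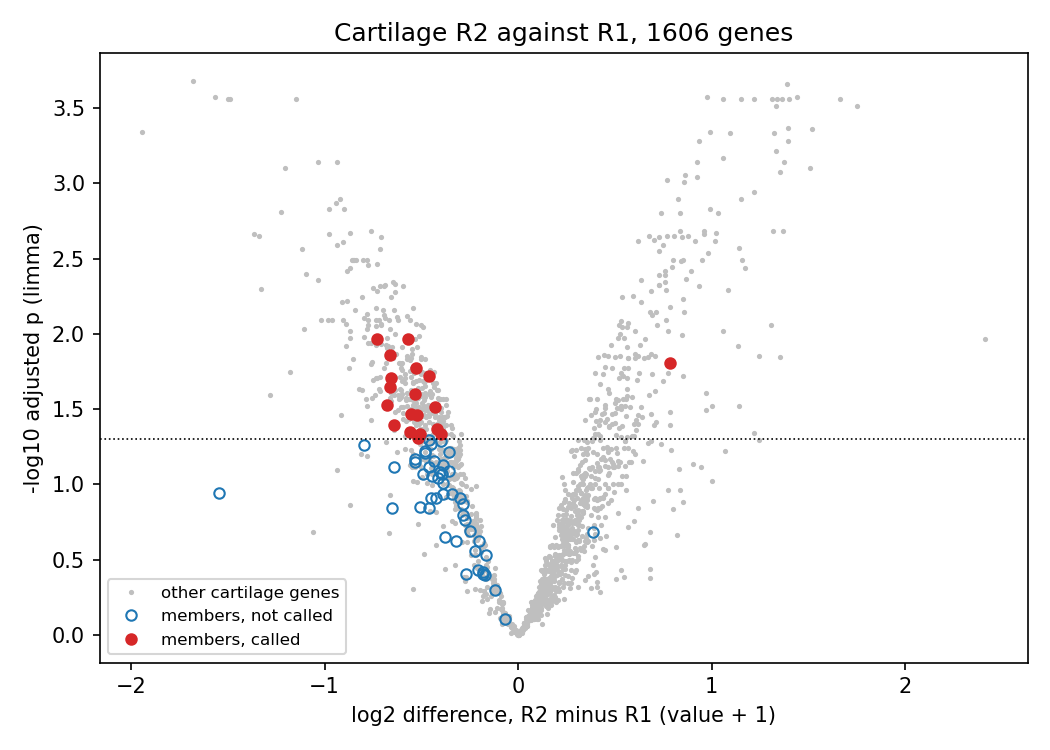
Each point is a cartilage gene, with the limma log2 difference of R2 minus R1 (value plus 1) across and -log10 of the adjusted p upwards, and the dotted line at an adjusted p of 0.05. Of the 65 members, 18 called lower and Jchain called higher are filled red, and 46 not called are open circles.

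In synovium only 5 members were in the table, Stx11, Ms4a8a, Slc28a2, Plbd1 and Ffar2, out of 1178 genes, and MMS D28 was not measured there. The third replicate of each group other than R1 stood apart from the other libraries (Gm2023 at 1.71 to 3.36 FPKM against 12.6 to 56.2), and values without these 5 libraries are given where they move a result. The synovium and cartilage tables were normalised separately. All calls below are from limma over 1178 genes.

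Stx11 was the only one of the 5 that rose in the MMS groups of synovium, with FPKM values of 1.37, 1.87 and 1.80 in Control, 3.64, 2.81 and 2.32 in MMS D3, 2.88, 2.75 and 3.49 in MMS D7, 3.97, 3.52 and 3.96 in MMS D14, 1.43, 2.61 and 1.45 in R1 and 1.22, 1.29 and 1.37 in R2. All MMS libraries were above all Control libraries, and R2 was at or below the lowest Control value. By limma its log2 difference from Control was 0.54 (MMS D3, adjusted p = 0.00888), 0.59 (MMS D7, 0.00251) and 0.85 (MMS D14, 7.08e-05), and relative to MMS D14 it fell in R1 (-0.79, adjusted p = 0.000291) and in R2 (-1.07, 2.39e-05). The MMS D3 call ended without MMS D3 replicate 1 (adjusted p = 0.0540).

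Slc28a2 fell in every comparison with Control. Its FPKM values were 13.6, 15.1 and 17.4 in Control, 7.59, 8.79 and 10.8 in MMS D3, 8.43, 8.20 and 9.08 in MMS D7, 3.20, 4.24 and 5.82 in MMS D14, 7.13, 8.84 and 10.5 in R1 and 7.57, 9.55 and 10.4 in R2. No MMS, R1 or R2 library reached the Control range, and MMS D14 was the lowest group. The differences by limma were -0.71 (MMS D3, adjusted p = 0.00629), -0.77 (MMS D7, 0.00172), -1.61 (MMS D14, 7.09e-07), -0.74 (R1, 0.00390) and -0.69 (R2, 0.00662), and relative to MMS D14 it rose by 0.87 in R1 (0.000680) and 0.93 in R2 (0.000418).

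Ffar2 was listed at 52.1, 55.6 and 47.7 in Control, 38.9, 53.5 and 63.6 in MMS D3, 35.5, 32.8 and 36.5 in MMS D7, 13.6, 17.3 and 27.8 in MMS D14, 15.9, 16.8 and 16.4 in R1 and 21.2, 22.2 and 12.7 in R2. MMS D3 overlapped with Control, and MMS D14, R1 and R2 were all below it. It fell in MMS D7 (limma log2 difference -0.55, adjusted p = 0.0388), in R1 (-1.603, 0.000101), in R2 (-1.46, 0.000217) and in MMS D14 (-1.42, 2.55e-05), and it had no call against MMS D14 in R1 (0.452) or R2 (0.874). Without the 5 libraries its difference of R2 from MMS D14 changed from -0.04 to 0.48 (adjusted p = 0.0147, over all alternatives 0.0147 to 0.902).

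Ms4a8a was listed at 8.99, 9.35 and 6.58 in Control, 4.31, 4.65 and 2.61 in MMS D3, 4.28, 7.22 and 4.33 in MMS D7, 3.65, 3.96 and 3.21 in MMS D14, 9.50, 12.6 and 11.2 in R1 and 6.30, 6.68 and 8.66 in R2. MMS D3 and MMS D14 were below Control without overlap, MMS D7 overlapped with it, and R1 was above all Control libraries. By limma it fell in MMS D3 (-0.95, adjusted p = 0.00155), MMS D7 (-0.59, 0.0161) and MMS D14 (-1.004, 0.000224), and its difference in R1 was 0.38 (0.121). Relative to MMS D14 it rose in R1 (1.39, 3.60e-05) and R2 (0.83, 0.00185). Plbd1 was listed at 29.8, 25.6 and 25.5 in Control, 29.1, 27.8 and 29.1 in MMS D3, 22.6, 25.4 and 20.7 in MMS D7, 19.2, 11.7 and 14.9 in MMS D14, 22.6, 30.04 and 22.2 in R1 and 25.2, 22.02 and 23.03 in R2. MMS D14 was the lowest group, MMS D7 and R2 lay closer below the Control range, and MMS D3 and R1 overlapped with it. Plbd1 fell in MMS D14 by 0.81 (limma, adjusted p = 0.000220) and rose from MMS D14 to R1 (0.69, 0.00139) and R2 (0.61, 0.00312). The calls of Plbd1 ended when each library was centred on its median, with adjusted p-values of 0.139, 0.0842 and 0.124. The MMS D7 calls of Ms4a8a and Ffar2 ended under that centring too (0.178 and 0.279). They also ended when single libraries were left out: that of Ms4a8a without Control replicate 1 or 2 or MMS D7 replicate 1 or 3 (0.0524 to 0.0711), and that of Ffar2 without Control replicate 1 or 2 or any MMS D7 replicate (0.0597 to 0.101).

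Counted over the 5 genes, limma called 1 higher and 2 lower in MMS D3, where 16.3% and 39.6% of all synovium genes were called. In MMS D7 it called 1 and 3 (24.1% and 61.6%), in MMS D14 1 and 4 (27.7% and 69.3%). The counts were 0 and 2 for R1 (15.9% and 45.2%) and 0 and 2 for R2 (15.7% and 45.1%). Relative to MMS D14 it called 3 higher and 1 lower in R1 (63.2% and 25.8%) and in R2 (63.0% and 25.5%). With 5 genes these counts are near the shares of the table.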

How the data were processed

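The members and the gene lists were chosen with earlier results of these data known. RNA was extracted with Trizol and libraries were made at BGI, per the labels' protocols, and the submitters' processing notes name HISAT2 and build mm10. The authors deposited a normalised signal per gene for cartilage, whose unit and making are not given in the sources used here, and FPKM per gene for synovium, per the file headers. No counts were used, so depth is unknown, and the number of libraries limits the precision.

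Values were used as deposited, as log2 of the value plus 1. The filter, a value of 1 in at least 2 cartilage or 3 synovium libraries, removed no gene. For tests, limma 3.58.1 under R 4.3.3 was run with a variance trend on every group of a tissue together. Adjusted p-values are Benjamini-Hochberg values over the tissue's whole table, with 0.05 as the threshold. The fit was tested on simulated data. In synovium the deviations of same-numbered libraries from their group means correlated at over 0.1 for all 3 numbers in 4 of the 7 comparisons (0.11 to 0.66; MMS D3, MMS D14 and R2 against Control, and R2 against MMS D14), a pairing taken from the data and not from the labels. Cartilage R2 against R1 and 7 synovium comparisons were tested, because the rule did not use them.

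Genes named were the members with the largest MMS D28 differences or highest MMS D28 values, members on a list, the extremes of R1 and R2 relative to MMS D28, the smallest adjusted p in R2 against R1, members in synovium and genes next to a threshold. Padi4 and the other members, their roles and the exceptions to counts were named after their values were seen. One member is counted but not reported by name here. Positions are from GENCODE vM21 (64 of 65 members matched), and promoters from RefSeq on GRCm38.p6, with 15 members lacking an entry. Alternatives were another pseudocount, centring, no filter, no trend, a robust fit, a replicate block, only the 2 groups compared, other limits of the rule and leaving out libraries. Other software was pandas 2.3.3, numpy 2.4.6 and matplotlib 3.10.9 under Python 3.11.15.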

Additional observations from a re-analysis of the deposited data

Results flagged for a closer look

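The 5 members in both tables were searched over every group shared by the tissues. For 4 of them, every library of a group moved one way from Control in cartilage and the opposite way in synovium. All these cases were higher in cartilage and lower in synovium, and their share was not set against other genes. In cartilage, 64, 55 and 60 of 65 members were above Control in R1, R2 and MMS D14. The rule used the Control and MMS D14 libraries of cartilage. In synovium, limma called 45.2%, 45.1% and 69.3% of all genes lower in R1, R2 and MMS D14. The difference between the tissues was not tested, and the tables were normalised separately and hold other libraries. Ms4a8a in MMS D14 was at 0.44 in cartilage and -1.01 in synovium, as the log2 difference of group means from Control. Slc28a2 was at 0.23 and -1.59 in MMS D14, 0.54 and -0.74 in R1 and 0.059 and -0.68 in R2. Ffar2 was at 0.65 and -1.61 in R1 and 0.22 and -1.42 in R2. Plbd1 in R2 was at 0.20 and -0.20.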

How the results depend on the processing

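The number of genes by the rule (65) was 6 with an MMS D28 difference of at least 1, 32 with an early share of at most 0.25 and 197 with a share of at most 0.5, and it ran from 26 to 123 when each library was left out. Members at 0.5 or more in R2 (2) were 5 after centring, 4 with a pseudocount of 0.1 and 2 to 8 with each library left out. Calls in R2 against R1 (19) were 41 in a fit of only the 2 groups, 0 to 15 without each R1 or R2 library and 31 without MMS D28 replicate 1, an alternative added after seeing the data. In cartilage, same-numbered libraries had correlations of -0.51 to 0.42 and only 2 numbers, so the numbers were not taken as pairs, and with a replicate block the count was 12. In synovium, where some groups paired, the replicate block changed no call of the 5 members in any of the 7 comparisons. Calls in synovium MMS D7 (4) were 2 after centring and 2 to 4 with each library left out.

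Centring reversed the synovium differences of Ffar2 in MMS D3 (0.11), Plbd1 in MMS D7 (0.053), R1 (0.068) and R2 (0.024) and Ms4a8a in R2 (0.040). Without the 5 libraries that stand apart, Ffar2 relative to MMS D14 was 0.087 in R1 and 0.48 in R2. With each library left out, R2 against R1 ran from -0.21 to 0.079 for Clec4d and -0.67 to 0.13 for Il1b. In synovium Ffar2 ran from -0.18 to 0.17 in MMS D3, from -0.40 to 0.087 in R1 against MMS D14 and from -0.26 to 0.23 in R2 against MMS D14, and Stx11 ran from -0.13 to 0.16 in R1. Fosb in cartilage ran from -0.70 to 2.03 in MMS D28 and from -1.504 to 0.14 in R2. The causes were not tested. Cartilage R2 against Control was not tested, because Control chose the members, and 2 libraries a group and an unknown depth limit the precision.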
